A study of Homo sapiens with 6 samples.

Results

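The measurements described here compare the replicate 2 arrays with the replicate 1 arrays of VCaP cells that received a SOX9 siRNA. VCaP is an established human line from a prostate cancer, with a TMPRSS2/ERG gene fusion, and its medium was DMEM with fetal bovine serum. The cells received SOX9 siRNA A, SOX9 siRNA B or a non-targeting control siRNA (labelled SOX9i-A, SOX9i-B and NTC), and RNA of every group was taken 72 h after transfection. Each of the 3 groups held 2 arrays, numbered replicate 1 and replicate 2, of the Affymetrix Human Genome U133 Plus 2.0 type. The 4 SOX9 siRNA arrays, of 6 in all, were chosen by their labels and paired within an siRNA. The 2 control arrays served as the reference for what differs between replicates without a SOX9 siRNA. By its title the series concerns WNT signalling and SOX9, which is a transcription factor. All arrays come from 1 cell line, so results are for that line. The replicate number is only a name: no source used here ties equal numbers to a common culture, transfection or day.

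The gene groups described first belong to 3 regulatory systems. Hypoxia-inducible factors are transcription factors that oxygen-dependent hydroxylases mark for destruction, and when stable they raise glycolytic enzymes, glucose transporters, angiogenic factors and collagen-modifying enzymes. The sterol regulatory element binding proteins are held in the endoplasmic reticulum by INSIG proteins while sterol is plentiful, and when released they turn on the genes of cholesterol and fatty acid synthesis. NF-kappaB dimers, held in the cytoplasm by inhibitor proteins, drive chemokine genes such as CXCL8 and CCL2, whose products recruit leukocytes. These statements are background and not results of these arrays.

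SOX9 was lower in replicate 2 than in replicate 1 in every group. Its signal was 1109 in replicate 1 and 694 in replicate 2 of siRNA A; siRNA B read 702 and 290.2, and control siRNA 1543 and 1060.1. On this probe set replicate 1 of siRNA A lay above replicate 2 of control, so siRNA and control arrays overlapped there. Both replicate 2 siRNA arrays lay below the other 4. On the log2 scale the replicate difference was -0.66, -1.23 and -0.53 in the same order. The mean of the 2 siRNAs was -0.95 ± 0.14 (limma's moderated SE, 2 pairs of arrays, adjusted p = 5.09e-04). Here and below ± gives such a moderated SE, which draws mostly on the trend over all genes and not on the pairs alone. The mean did not pass limma's test against the control difference (adjusted p = 0.482). A second SOX9 probe set gave differences of -0.50, -1.31 and -0.45. Its brightest siRNA array, replicate 1 of siRNA A, read 862, below the dimmer control array, replicate 2, at 1195. The overlap of siRNA and control arrays was thus absent on this second probe set.

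Values are MAS5 signals, which are linear brightness values per probe set, brought to a common 2%-trimmed mean and used as log2(signal + 16). As deposited the trimmed means ran from 144 to 190, and the median replicate difference over all genes was -0.067 with siRNA A, 0.31 with siRNA B and 0.14 with control. After scaling these medians were -0.028, -0.050 and -0.0042. GAPDH 3'/5' signal ratios were 1.04 to 1.19 and ACTB ratios 2.91 to 3.79. The summed signal of the 12 prostate luminal markers measured went from 40337 to 34706 in siRNA A and from 41892 to 34994 in siRNA B, while control read 35541 and 35713; its part in the results was not tested. That of 9 leukocyte and erythroid markers was 153 to 214. Precision is limited by there being 2 arrays a group, and a lower signal cannot tell fewer cells of a kind from less RNA per cell.

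Replicate 2 differed from replicate 1 in more genes with either SOX9 siRNA than with control siRNA. Of 12436 genes tested, 946 (7.61%) rose and 1376 (11.1%) fell at a limma adjusted p below 0.05. Over the same genes, 3974 (32.0%) were higher and 4918 (39.5%) lower in both siRNAs by any amount. A 2-fold difference, at least 1 on the log2 scale, was seen in both siRNAs in 47 genes upward (0.378%) and 189 downward (1.52%). With siRNA A alone 134 genes (1.08%) were 2-fold higher and 318 (2.56%) lower, with siRNA B alone 155 (1.25%) and 580 (4.66%), and with control siRNA 36 (0.289%) and 41 (0.330%). The standard deviation of the replicate difference over genes was 0.45 with siRNA A, 0.51 with siRNA B and 0.29 with control. The differences of siRNA A and siRNA B correlated at 0.64 across genes, while each correlated with the control difference at 0.18 and 0.17. Genes are not independent replicates, and these correlations carry no test.

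The arrays that stood apart were the replicate 2 arrays of both siRNAs. Both lay above the other 4 arrays in 1950 genes (15.7%) and below them in 2611 (21.0%), whereas both replicate 1 siRNA arrays lay above the rest in 431 genes (3.47%) and below in 331 (2.66%). Of the 47 genes that were 2-fold higher, 45 had the replicate 2 siRNA arrays above all others, and of the 189 that were 2-fold lower, 186 had them below all others. In other words, for these genes the replicate 1 siRNA arrays lay on the side of the control arrays. Across all genes, replicate 1 of siRNA A correlated with the control arrays at 0.986 and 0.988 and replicate 2 of siRNA A at 0.959 and 0.968. For siRNA B these values were 0.982 and 0.981 in replicate 1 and 0.944 and 0.950 in replicate 2.

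The calls rest on few arrays. With 1 residual degree of freedom, the spread came mostly from limma's trend over all genes. That degree of freedom is the difference between the siRNAs in their replicate difference, so the calls are not tested against replicate noise. For siRNA A, leaving out the replicate 1 array gave 14 called genes and the replicate 2 array 522; for siRNA B these counts were 23 and 118. The fits with an array left out also dropped the pairing by siRNA, so their counts do not show the loss of an array alone. Without pairing by siRNA, and with all 4 arrays, 2 genes were called. A fit in which all 3 groups share the replicate term called 0 genes, with 2451 at an unadjusted p below 0.05 against 3996 in the fit reported. Of the called genes 40.7% rose, but with each array centred on its median 53.0% of 2849 did. Of the genes past 2-fold 19.9% were higher, and 34.5% of 194 with signals as deposited. Of 163 genes named here, 10 kept a call with each of the 4 arrays left out in turn: CCL2, CCL20, CXCL10, CXCL8, GADD45A, ID1, LYPD6, P4HA1, PRAME and TXNIP.

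**Figure D1:**
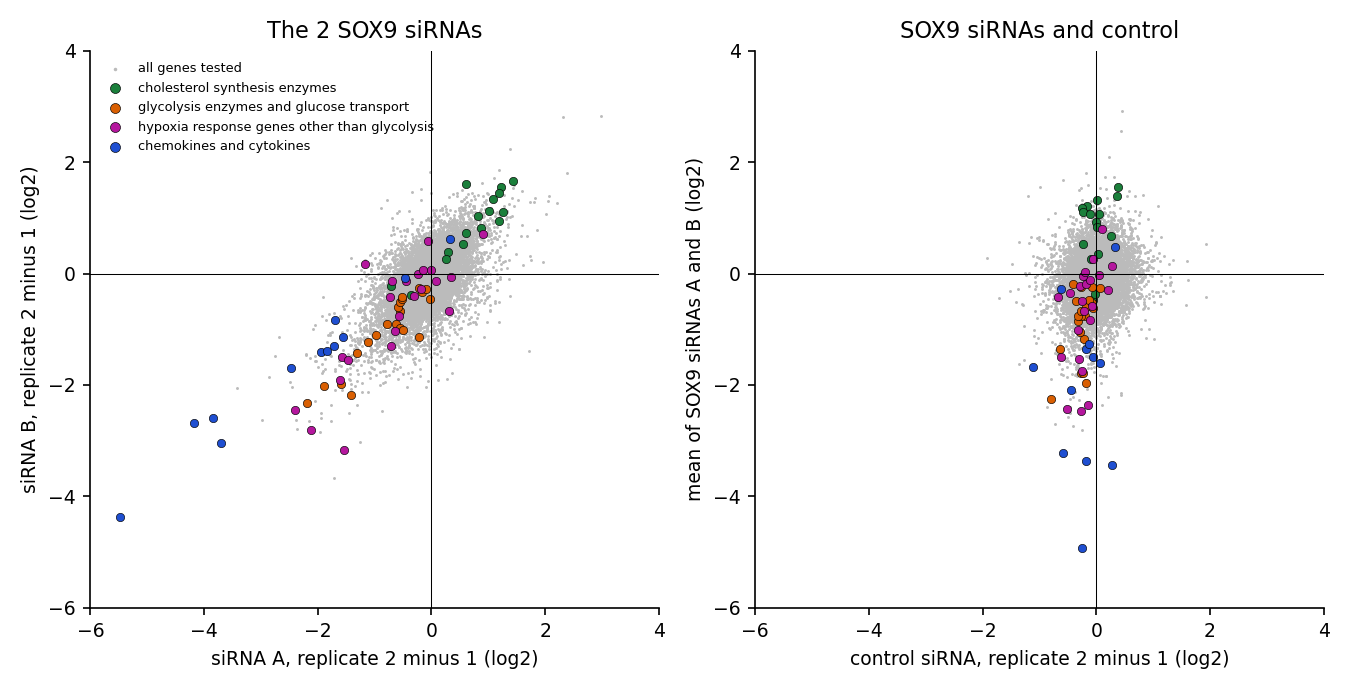
Replicate 2 minus replicate 1 on the log2(signal + 16) scale for each of 12436 genes. Left, siRNA A against siRNA B; right, control siRNA against the mean of both SOX9 siRNAs. Grey points are all genes and coloured points the members of 4 gene lists. The cloud is stretched along the diagonal on the left, with a correlation of 0.64, chemokines reaching -5.48 (CCL2, siRNA A), and on the right it is narrow in the direction of control.

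The 4 largest mean differences were in chemokine genes, CCL2, CCL20, CXCL10 and CXCL8, all lower. The promoters of 5 chemokine genes held a match to the letters GGANTTTCC in the 250 bases before the start. These letters are 1 form of the kappaB site that NF-kappaB dimers bind. They are shown because these genes fell together; sequences are from RefSeq (GRCh38.p14), 5′ to 3′ on the gene's strand, with the match in capitals and 20 bases on each side.
CXCL1: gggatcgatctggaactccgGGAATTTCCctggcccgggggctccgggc
CXCL2: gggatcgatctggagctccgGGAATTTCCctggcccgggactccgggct
CXCL3: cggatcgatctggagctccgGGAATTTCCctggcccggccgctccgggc
CXCL8: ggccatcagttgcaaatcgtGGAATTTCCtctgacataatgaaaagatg
CXCL10: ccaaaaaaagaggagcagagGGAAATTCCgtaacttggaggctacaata
These windows are chr4:73869295-73869343 (plus strand), chr4:74099244-74099292 (minus), chr4:74038739-74038787 (minus), chr4:73740458-73740506 (plus) and chr4:76023645-76023693 (minus), in that order. The match began 78, 77, 78, 91 and 176 bases before the start. The windows of CXCL1, CXCL2 and CXCL3 are near copies of one another, with 45 of 49 bases the same in CXCL1 and CXCL3, so they are not independent examples. Of the 9 called chemokine and cytokine genes with a promoter in the table, 5 (55.6%) held these letters on either strand, against 1.49% of the 10161 promoters of all tested genes. The list was chosen with earlier results known, and chemokine genes that did not fall were not counted apart. The shares therefore do not bear on why these genes fell. A match is a description of the letters and says nothing of binding.

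CCL2, which attracts monocytes, showed the widest gap. Its signal was 2137 and 1176 in replicate 1 (siRNA A first, then B, here and in the values that follow) and 2105 and 1773 in the control arrays, but 32.3 and 41.7 in the replicate 2 arrays. The mean difference was -4.92 ± 0.21 (SE; adjusted p = 4.52e-09), and it exceeded the control difference by -4.68 (adjusted p = 2.14e-05). CXCL10, an interferon-inducible attractant of T cells, read 1858 and 702 in replicate 1, 129 and 70.9 in replicate 2 and 1259 and 1105 in control. CXCL8, the neutrophil attractant interleukin 8, read 1081 and 580.3, then 60.6 and 83.3, with 1113 and 738 in control. For both genes all 4 replicate 1 and control arrays lay well above the replicate 2 siRNA arrays, and the mean differences were -3.37 and -3.21. CCL20, the ligand of CCR6, went from 310.0 and 108 to 1.96 and 3.48, and the control arrays read 187 and 231. The replicate 2 values of CCL20 lie below the signal of 22.0 used as a floor for testing, so its difference of -3.43 is set in part by the added 16.

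Of the 21 chemokines and cytokines listed, 20 had a probe set of their own and 12 were bright enough to test on the mean of all 6 arrays. Of these 10 fell and 0 rose, where 11.1% of all genes fell. In both siRNAs 9 were 2-fold lower, where 1.52% of all genes were. The filter bears on these counts, since a dim gene passes it only through the arrays where it is high; TNF, CCL20, CXCL2 and CXCL3 read below its floor of 22.0 in both replicate 2 siRNA arrays. Without it the list's median of the mean difference was -0.99 in place of -1.64. The median difference was -1.89 with siRNA A, -1.40 with siRNA B and -0.18 with control, beside -0.028, -0.050 and -0.0042 for all genes tested. CXCL1, CXCL2 and CXCL3, closely related neutrophil attractants whose probes may share signal, fell, with mean differences of -2.09, -1.35 and -1.51 on the log2 scale. CXCL1 read 347 and 205 in replicate 1 and 49.2 and 51.9 in replicate 2. TNF, the cytokine that activates NF-kappaB, was dim, at 51.9 and 45.0 in replicate 1 and 2.99 and 7.40 in replicate 2, with a mean difference of -1.61 (adjusted p = 0.00187). TNFSF10, the death ligand TRAIL, fell by 1.27. The 2 tested members that did not pass were CXCL16, at 0.48, and CSF1, at -0.27. 5 members, CCL2, CCL20, CXCL10, CXCL8 and CXCL1, also passed the test against the control difference, where 0.973% of all genes did so downward.

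ACKR3 and CXCL11, chemokine system genes that the list did not hold, were also lower. ACKR3, an atypical receptor that scavenges CXCL12, read 1091 and 896 in replicate 1 and 252 and 169.7 in replicate 2, while control went from 1017 to 1380.2. Its difference from control was -2.61 ± 0.22 (adjusted p = 5.71e-05). CXCL11, another CXCR3 ligand, differed between the siRNAs: it went from 1712 to 704 with siRNA A and from 509 to 48.3 with siRNA B. Control rose from 910.5 to 1232, and the replicate 2 array of siRNA A overlapped the range of the other arrays.

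NF-kappaB subunits themselves did not pass the test, whereas some of their feedback targets did. Of 18 genes tested in this list 4 fell and 1 rose (11.1% and 7.61% of all genes), with medians of -0.49, -0.22 and 0.053. TNFAIP3, which encodes the inhibitor A20, read 209 and 205 in replicate 1, 52.2 and 119 in replicate 2 and 247 and 235 in control. TNFAIP2, another TNF-induced gene, and IKBKB, the kinase that marks the inhibitor for destruction, differed by -1.38 and -1.03. NFKBIA, the inhibitor itself, fell by 0.51 as a mean, but with -0.91 in siRNA A and -0.10 in siRNA B. CHUK, the other IKK kinase, rose by 0.48. The subunits RELA and NFKB1 differed by -0.097 and 0.21, with adjusted p of 0.633 and 0.398. NFKB2, RELB and REL were lower in both siRNAs and higher in control. Their mean differences were -0.61, -0.52 and -0.16 (limma adjusted p of 0.123, 0.133 and 0.564). Unadjusted, NFKB2 and RELB had limma p of 0.036 and 0.040. NFKB2 was dim, at 17.9 in replicate 2 of siRNA A. None of the list passed the test against control in either direction (limma, 0 of 18, with 5 at an unadjusted p below 0.05), and the smallest adjusted p there was 0.057.

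Of 20 interferon-stimulated genes tested 4 fell and 1 rose, where 11.1% and 7.61% of all genes did, and the list's median was -0.29, -0.095 and 0.071; with signals as deposited the mean of the siRNAs turned from -0.14 to 0.013. IFIT2, an RNA-binding antiviral protein, read 91.6 and 133 in replicate 1 and 44.2 and 66.0 in replicate 2, and its mean difference was -0.85. IRF1, an interferon-induced transcription factor, fell by 0.79, mostly with siRNA A (-1.17 against -0.41). The RNA sensor IFIH1 rose by 0.50.

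Genes of the hypoxia response formed the next group. Their core element is ACGTG or GCGTG. ALDOC, a glycolytic aldolase, and P4HA1, a collagen prolyl hydroxylase, were among the genes that fell most, and their promoters (RefSeq, GRCh38.p14, 250 bases before the start, core matches on either strand in capitals) are given as examples.
ALDOC: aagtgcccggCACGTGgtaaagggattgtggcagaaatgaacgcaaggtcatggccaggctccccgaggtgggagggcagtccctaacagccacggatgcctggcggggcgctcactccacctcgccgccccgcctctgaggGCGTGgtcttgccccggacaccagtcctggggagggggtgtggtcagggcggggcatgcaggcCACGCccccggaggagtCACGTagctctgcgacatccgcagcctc
P4HA1: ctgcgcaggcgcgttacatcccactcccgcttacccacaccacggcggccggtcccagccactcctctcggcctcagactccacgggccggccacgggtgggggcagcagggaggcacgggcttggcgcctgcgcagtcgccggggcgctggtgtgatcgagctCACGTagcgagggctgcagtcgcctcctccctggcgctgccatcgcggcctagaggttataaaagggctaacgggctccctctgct
They lie at chr17:28576896-28577145 (minus strand) and chr10:73096867-73097116 (minus strand). ALDOC held 5 matches, 2 of them the same letters read on both strands, and P4HA1 held 1. The core is short and common: 14 of 22 glycolysis and hypoxia promoters of genes that fell held it (63.6%), and 57.3% of all tested genes' promoters did.

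P4HA1 read 3033 and 2871 in replicate 1, 558 and 509.5 in replicate 2 and 3733 and 2600.0 in control. The siRNAs gave nearly the same difference, -2.41 and -2.46, against -0.52 in control (adjusted p of the difference from control = 2.59e-04). VEGFA, the vascular growth factor, read 1851 and 1601, then 414 and 214, with 1969 and 1632 in control. Of its 3 other tested probe sets 2 fell in both siRNAs. CA12, a carbonic anhydrase at the cell surface, went from 3155 to 1074 with siRNA A and from 2184 to 230.1 with siRNA B. In all 3 genes the replicate 2 siRNA arrays were below every other array. BNIP3, which directs mitochondria to autophagy, went from 7416 and 7516 to 2487 and 2643. MXI1, an antagonist of MYC, and EGLN3, an oxygen-sensing prolyl hydroxylase that hypoxia induces, differed by -1.76 and -1.50.

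Of 28 such genes outside glycolysis, 23 were tested, 9 fell and 1 rose, where 11.1% and 7.61% of all genes did. The median was -0.57 with siRNA A, -0.40 with siRNA B and -0.22 with control, which was thus lower in replicate 2 as well. The others that fell were KDM3A, a histone demethylase, NDRG1, a stress-induced gene, and INSIG2, the sterol sensor partner, at -1.01, -0.84 and -0.66. BHLHE40, a transcriptional repressor that hypoxia also induces, went the other way, from 242 and 391 to 465 and 651. The remaining 13 did not pass, among them ADM, the adrenomedullin gene, at 0.14. The mRNAs of the factor subunits were among these too: HIF1A read 4131 and 3996 in replicate 1 and 4086 and 4193 in replicate 2, with a mean difference of 0.027, and EPAS1 differed by -0.043. 5 members differed from control, namely VEGFA, P4HA1, CA12, MXI1 and BNIP3, where 0.973% of all genes did so downward. Beyond the list, PLOD2, a collagen lysyl hydroxylase, and MIR210HG, the host transcript of a hypoxia-induced microRNA, differed by -2.35 and -2.40. MIR210HG read 139.7 and 239 in replicate 1 and 18.9 and 24.9 in replicate 2, with 158 and 111 in control.

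Glycolysis was lower at nearly every step. All 21 of 21 tested enzymes and transporters were lower in replicate 2 of both siRNAs, a direction that 39.5% of all genes shared. Control was also lower in replicate 2 for all of them but SLC2A1, at 0.060. HK1 and PFKL fell more in control (-0.42 and -0.26) than in the siRNA mean (-0.19 and -0.24). The other tested probe set of PKM, and that of SLC2A3, did not fall in both siRNAs. For TPI1 only 1 of 2 others did. The limma test was passed by 15, where 11.1% of all genes fell. For 18 of the 21 the replicate 2 siRNA arrays were below the other 4, where 21.0% of all genes had this order. The median was -0.56 with siRNA A, -0.91 with siRNA B and -0.26 with control. At the entry, HK2, the inducible hexokinase, read 672 and 669.6 in replicate 1, 242 and 136 in replicate 2 and 765 and 649 in control. PFKP, a phosphofructokinase, went from 1439 and 1411 to 464 and 344, with 1706 and 1418 in control. PFKFB4 and PFKFB3, which make the activator of that step, differed by -1.36 and -0.61. ALDOC went from 517 and 992 to 101 and 186, while control also went from 643 to 363.

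LDHA, lactate dehydrogenase A, read 11085 and 10447 in replicate 1 and 5075 and 4427 in replicate 2, against 11548 and 9959 in control. ENO1, ALDOA, TPI1, GPI, PKM, PGK1, PFKM and PGAM1 fell, with mean differences from -1.04 for ENO1 to -0.47 for PGAM1. PDK1, the kinase that shuts pyruvate out of the mitochondrion, read 1783 and 1620.2, then 467 and 388, with 1641 and 1448 in control. The exceptions to a pass were HK1, the constitutive hexokinase, PFKL, ENO2, GAPDH and the glucose transporters SLC2A1 and SLC2A3. GAPDH differed by -0.018 in siRNA A but -0.46 in siRNA B, and its mean of -0.24 turned to 0.0077 under quantile normalization. SLC2A1 differed by -0.25, and by 0.24 upward when the median of its probe sets was taken. ALDOC, PDK1, PFKP, HK2 and LDHA passed the test against the control difference, at -1.45, -1.78, -1.53, -1.56 and -0.97.

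**Figure D2:**
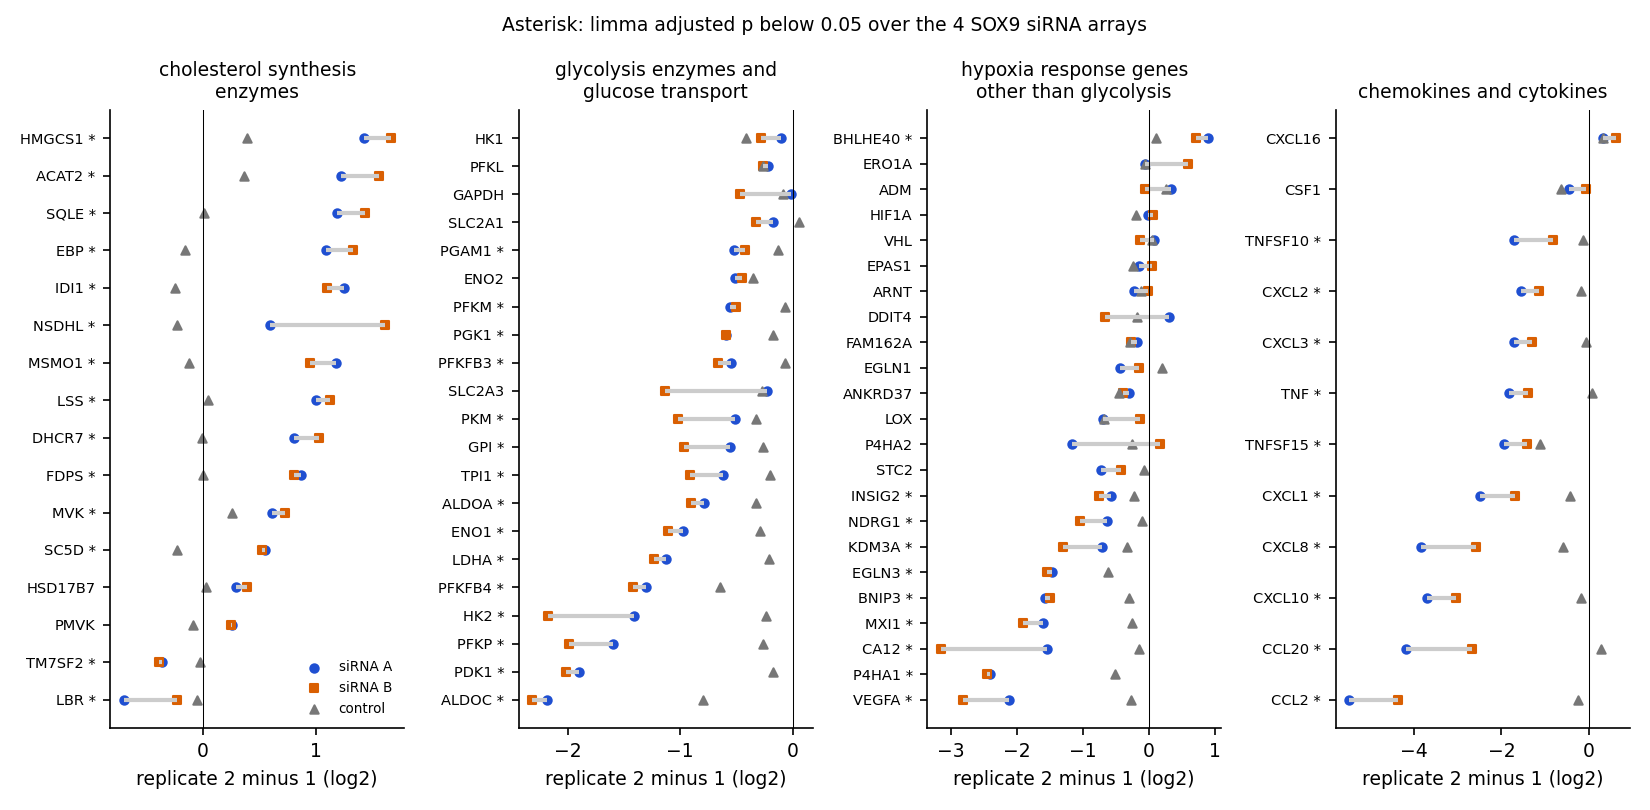
Replicate 2 minus replicate 1 (log2) for each tested member of 4 gene lists: circles siRNA A, squares siRNA B, triangles control siRNA, with a grey bar between the siRNAs. Each panel has its own axis. Asterisks mark genes past the limma test, 12 cholesterol enzymes upward and 15, 9 and 10 members of the other lists downward. The control triangles are mostly nearer 0 than the siRNA points. In the glycolysis panel they are below 0 for all but SLC2A1.

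Enzymes of cholesterol synthesis rose. Of 16 tested, 12 rose and 2 fell, where 7.61% and 11.1% of all genes did. In both siRNAs 6 were 2-fold higher, where 0.378% of all genes were. The median was 0.84 with siRNA A, 0.99 with siRNA B and -0.017 with control. HMGCS1, which makes HMG-CoA at the start of the pathway, read 527 and 732 in replicate 1, 1445 and 2361 in replicate 2 and 407 and 537 in control. Its mean difference was 1.55 ± 0.12 (SE; adjusted p = 1.73e-06), and 1.16 remained after the control difference was taken off (adjusted p = 0.0176). ACAT2, the thiolase before it, went from 496 and 709 to 1184 and 2127. MVK, IDI1 and FDPS, which turn mevalonate into farnesyl diphosphate, differed by 0.67, 1.18 and 0.84. Only 1 of the 2 other tested probe sets of IDI1 rose in both siRNAs. SQLE, the squalene epoxidase, read 1556 and 1832 in replicate 1 and 3565 and 5009 in replicate 2, against 1619 and 1627 in control. LSS, which closes the sterol rings, went from 845 and 1140.2 to 1709.5 and 2512.

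The later enzymes MSMO1, NSDHL, EBP, SC5D and DHCR7 rose by 1.07, 1.11, 1.21, 0.54 and 0.92. NSDHL differed most between the siRNAs, with 0.60 and 1.62. In every one of the 12 that rose except SC5D the replicate 2 siRNA arrays were above the other 4 arrays. Most genes that rose had this order, 792 of 946 over all genes tested. The 2 that fell both carry sterol reductase activity: LBR, also the lamin B receptor, at -0.47, and TM7SF2 at -0.37. HSD17B7 and PMVK did not pass, at 0.35 and 0.26. 8 members exceeded the control difference at an adjusted p below 0.05, where 0.587% of all genes did so upward; they were HMGCS1, ACAT2, SQLE, EBP, IDI1, MSMO1, LSS and FDPS. A sterol regulatory element core, TCACNCCAC, was in 0 of the 250-base windows of the 10 enzymes with a promoter in the table, among the 12 that rose, and in 0.768% of those of all tested genes.

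Regulators of the pathway were split. SREBF1, the gene of the SREBP that favours fatty acid genes, read 125 and 244 in replicate 1, 319 and 703 in replicate 2 and 129.6 and 150.3 in control. INSIG1, the retention factor and itself a target, went from 1963 and 1941 to 5264 and 3970.1. STARD4, a sterol carrier, went from 121 and 225 to 329.9 and 509.6, while control went from 102 to 76.2. For these 3 genes both replicate 2 siRNA arrays lay above all others. SREBF2, the gene of the SREBP that favours cholesterol genes, differed by 0.039 (adjusted p = 0.911) and SCAP, the sterol-sensing escort, by -0.25 (adjusted p = 0.2). INSIG2 and TMEM97, a sterol transport regulator, fell, at -0.66 and -0.35. In the list of 12 tested genes 3 rose and 2 fell, where 7.61% and 11.1% of all genes did.

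Of 10 fatty acid synthesis genes tested 4 rose and 0 fell, where 7.61% of all genes rose, and the median was 0.41, 0.33 and -0.066. FASN, fatty acid synthase, read 282 and 369 in replicate 1, 663 and 749.8 in replicate 2 and 337 and 374 in control. ELOVL6, an elongase, ACSS2, which makes acetyl-CoA from acetate, and ACLY, which makes it from citrate, rose by 0.87, 0.72 and 0.64. SCD, the stearoyl desaturase, differed by 0.48 and 0.14 and did not pass (adjusted p = 0.103). Of the fatty acid list 0 of 10 passed limma's test against control, and 4 had an unadjusted p below 0.05. Among 7 cholesterol efflux and LXR target genes SMPDL3A and LPCAT3 rose, by 0.71 and 0.49.

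**Figure D3:**
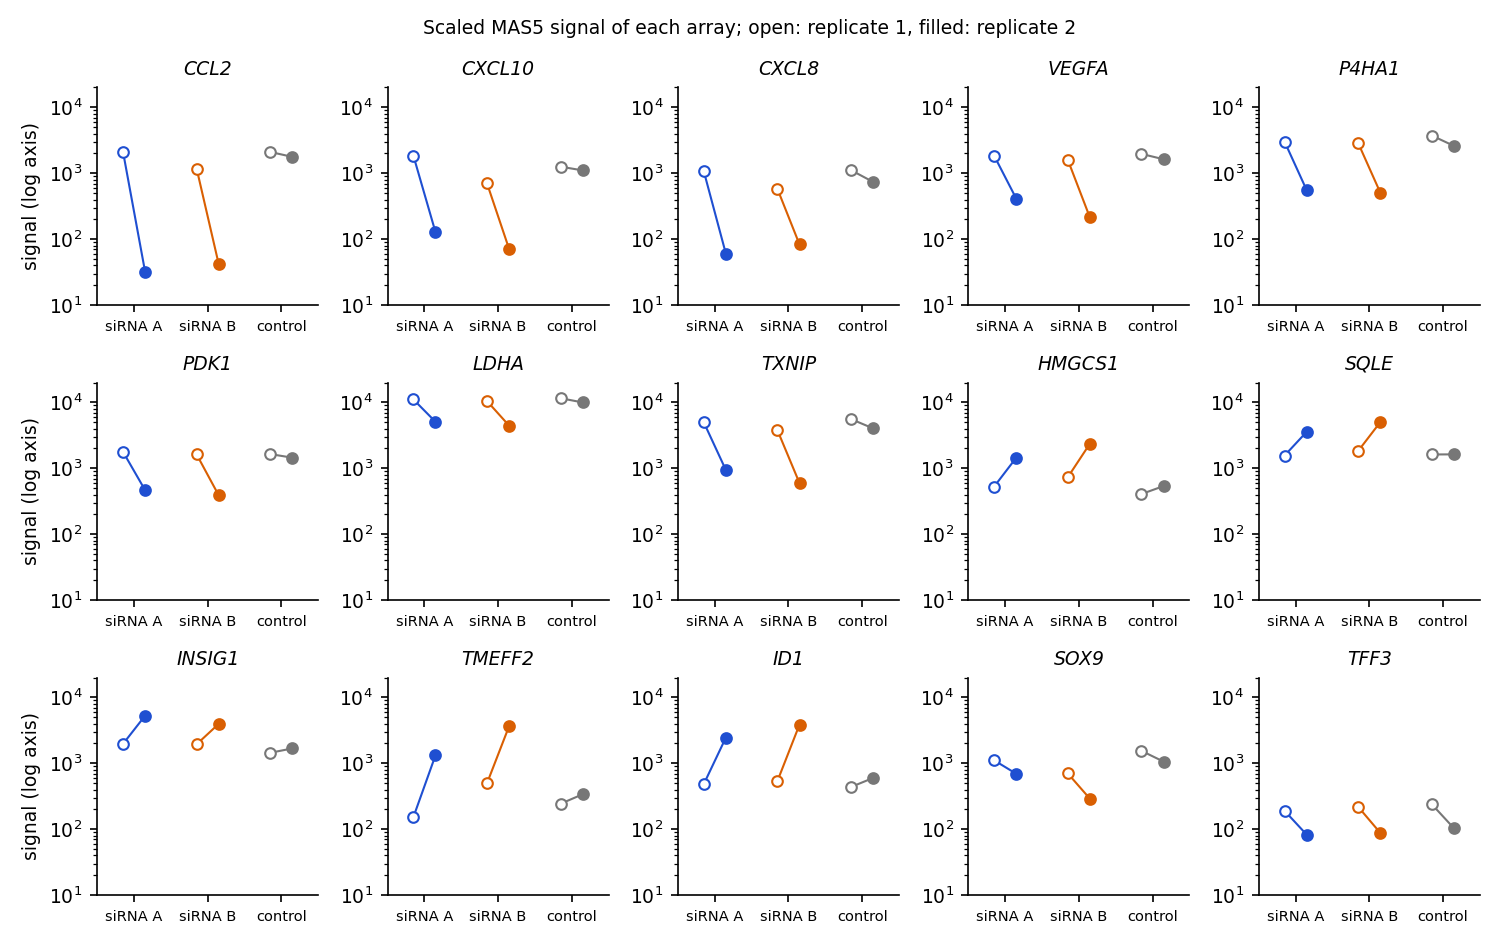
Scaled MAS5 signal (log axis) of 15 genes on each of the 6 arrays; open circles are replicate 1 and filled circles replicate 2, joined within a group. In the chemokine, hypoxia and glycolysis genes the filled siRNA points drop below all others, as with CCL2 at 32.3 and 41.7, and in the sterol genes, TMEFF2 and ID1 they rise above them. SOX9 and TFF3 fall in all 3 groups.

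Several genes outside these pathways were among the most changed. TXNIP, which binds thioredoxin and restrains glucose uptake, read 4995 and 3781 in replicate 1, 943 and 596 in replicate 2 and 5568 and 4022 in control. Its relative ARRDC4, which the same glucose-sensing factor controls, fell by 1.90. GADD45A, a growth arrest gene, went from 1639.7 and 1760.5 to 413 and 278. LYPD6, a modulator of nicotinic receptors and WNT signalling, read 137 and 109 in replicate 1 and 3.41 and 4.09 in replicate 2. PRAME, a tumour antigen, and PLAT, tissue plasminogen activator, showed the same pattern, going to 10.5 and 13.7 and to 1.55 and 8.00. The replicate 2 signals of these last 3 genes all lay below the test's floor of 22.0, so how low they went is not measured.

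On the higher side TMEFF2 led. TMEFF2, a transmembrane protein with follistatin domains that is abundant in prostate, read 152 and 499 in replicate 1, 1318 and 3665 in replicate 2 and 244 and 339.6 in control. 1 of its 2 other tested probe sets moved the same way in both siRNAs and 1 did not. The median level of its probe sets on each array gave -0.22, so the direction depends on the probe set taken. ID1 and ID3, inhibitors of basic helix-loop-helix factors and targets of BMP signalling, went from 482 and 538 to 2448 and 3862, and from 686 and 689.8 to 1883 and 2029.7. In control ID1 went from 438 to 599.7 and ID3 from 512 to 768, the same way but less. REG4, a secreted lectin, went from 126 and 98.2 to 728 and 383, and SHH, the hedgehog ligand, from 191 and 122 to 522 and 634. RORB, a nuclear receptor, and STS, steroid sulfatase, rose by 1.73 and 1.52. TLE4, a Groucho corepressor of TCF factors, rose by 1.82 with siRNA A and 1.36 with the other. LRRTM4, a synaptic adhesion protein, CRISPLD1, a secreted protein, and ANXA1, an anti-inflammatory annexin, rose by 1.54, 1.39 and 1.42.

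Set against the control difference, 194 genes passed the test, 73 above (0.587%) and 121 below (0.973%), with 1804 at an unadjusted p below 0.05. Of the 47 genes 2-fold higher in both siRNAs 28 were among them, and of the 189 lower ones 77. This test takes control's spread to equal that between the siRNAs, since control has 1 array per replicate number. With an siRNA array left out the count was 0 to 2: it was 2 when the first array of siRNA B was dropped and 0 for each of the other 3 arrays. Those fits also took the siRNA arrays as 1 group, without pairing. With signals as deposited 16 passed, 25.0% of them above control against 37.6% in the fit reported. The genes furthest above control included some that fell in control. GCG, the glucagon gene, went from 34.8 and 21.5 to 190.0 and 63.3 with the siRNAs and from 22.3 to 3.29 in control. RFX6, an endocrine transcription factor, went from 62.7 and 74.4 to 309 and 206, and from 54.7 to 31.3. The unannotated LOC90246 and the phospholipase gene PLD3 fell in control to 10.1 and 23.0, and PLD3 itself did not pass between siRNA replicates, at 0.28. GCG and LOC90246 rank high on arrays below the floor of 22.0: LOC90246 read 10.9 and 8.98 in replicate 1 of the siRNAs. Over the alternatives their differences from control ran from 1.33 to 4.40 for GCG and from 1.204 to 4.31 for LOC90246.

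A few genes differed in control as well. LUM, the proteoglycan lumican, was the 1 gene 2-fold higher in all 3 groups, from 262 to 683, from 809 to 1757 and from 163 to 363. TFF3, a secreted trefoil peptide, fell to 82.9, 88.0 and 103 from 191, 219 and 239. DSC1, a desmosomal cadherin, ESRRG, an orphan nuclear receptor, and TNFSF15, a TNF family ligand, were the others, with control differences of -1.37, -1.27 and -1.11. For these 5 genes the siRNA difference did not pass the test against that of control. PCDHB6, a protocadherin, was the single gene 2-fold apart in opposite directions, up by 1.71 in siRNA A but at -1.39 in siRNA B.

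**Figure D4:**
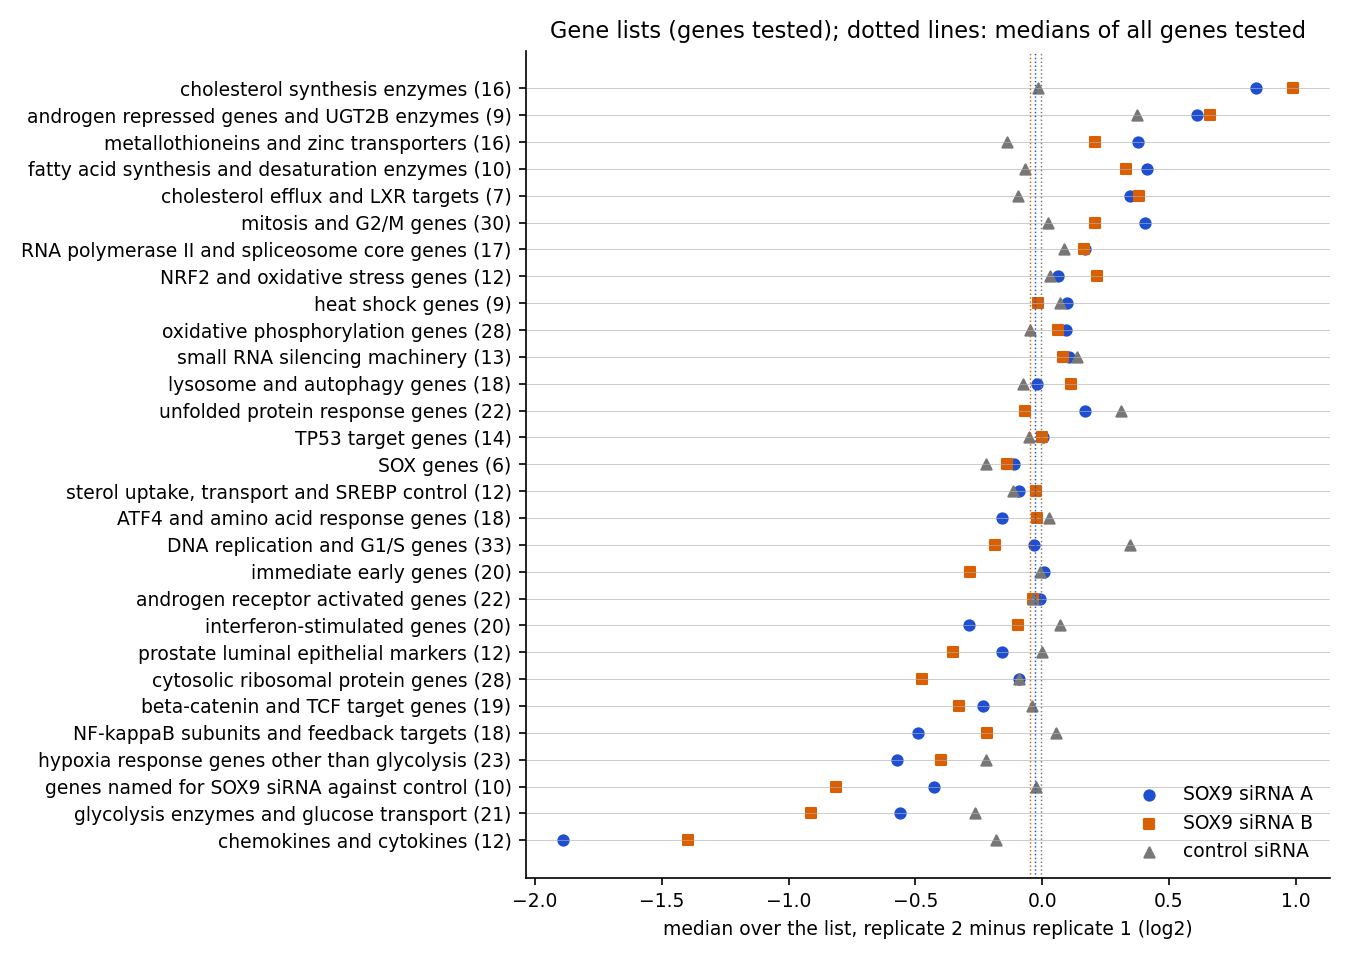
Median replicate 2 minus replicate 1 difference (log2) of each gene list with 5 or more tested genes, in siRNA A (circles), siRNA B (squares) and control (triangles); numbers in brackets are genes tested. Chemokines lie lowest, at -1.89 and -1.40, and cholesterol synthesis highest, at 0.84 and 0.99, with the control medians at -0.18 and -0.017.

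Prostate genes were partly lower. KLK3, which encodes prostate-specific antigen, read 2066 and 1698 in replicate 1 and 852 and 724 in replicate 2, and control went from 2098 to 1219. TMPRSS2, the androgen-driven protease gene, and ERG, its fusion partner in these cells, fell, at -0.88 and -0.60. Of 12 luminal markers tested 6 fell and 0 rose, among them KRT19, CDH1 and the pioneer factor FOXA1. The list's median was -0.16, -0.35 and -0.0014. Of all genes tested 11.1% fell and 7.61% rose, the shares to set beside the counts in this paragraph. Androgen-activated genes went both ways, 4 up and 6 down of 22, with SLC45A3, a prostein gene, at 1.48 and 0.35 and KLK4 at 0.68 and 0.92. The median over that list of the mean of both siRNAs was -0.14, against 0.025 with signals as deposited. Genes that androgen represses, together with UGT2B enzymes, held 5 that rose and 0 that fell of 9, with medians of 0.61, 0.66 and 0.37. OPRK1, the kappa opioid receptor, went from 264 and 352 to 490.1 and 652, and SI, sucrase-isomaltase, from 426 and 1589 to 876 and 2799.6. CDH2, N-cadherin, and NTS, neurotensin, were dim and rose by 1.13 and 0.89.

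WNT signalling is named in the series title. Of 19 beta-catenin and TCF targets tested 4 fell and 1 rose, where 11.1% and 7.61% of all genes did, and the median was -0.23, -0.33 and -0.042. MYC was the brightest of those that fell and rested on 1 array, with 6153 and 5360.3 in siRNA A, 5528 and 1682 in siRNA B and 6949.7 and 7277 in control. FZD7, a WNT receptor, went from 74.9 and 47.8 to 35.8 and 17.1, with 170.0 and 189.7 in control. ZNRF3, a ligase that removes such receptors, differed by -0.55, and WNT5A, a ligand, rose by 0.85. SOX4, a relative of SOX9, went from 5803 and 6534 to 3472 and 3327. A set of 10 genes that an earlier comparison of these arrays had named for SOX9 siRNA against control was chosen on the same arrays and so is no independent evidence; 5 of them fell and 1 rose between replicates. NPY6R, a receptor pseudogene, went from 289 and 234 to 146 and 68.0, with 856 and 800.4 in control, and TESC, a calcium-binding protein, differed by -1.07.

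Of 30 mitosis and G2/M genes 9 rose and 0 fell, where 7.61% of all genes rose and 11.1% fell, with medians of 0.41, 0.21 and 0.022. CDC20, the activator of the anaphase-promoting complex, read 463 and 301 in replicate 1, 1030.1 and 634 in replicate 2 and 318 and 331 in control. CENPE, a kinetochore motor, CCNB1, cyclin B1, and AURKA, a spindle kinase, rose by 0.82, 0.67 and 0.57. Of 33 DNA replication and G1/S genes 5 fell and 0 rose, the former a share near the 11.1% of all genes. PRIM1, the small primase subunit, went from 1456 and 939.6 to 744 and 372, with 1083 and 1138 in control. CDT1, a licensing factor, and CCNE1, cyclin E1, differed by -0.86 and -0.78. In this list control moved more than the siRNAs: the medians were -0.032, -0.19 and 0.35, and the mean of the siRNAs turned from -0.12 to 0.042 with signals as deposited.

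Stress and housekeeping genes are read against the same shares of all genes, 7.61% up and 11.1% down. Among metallothioneins, which bind zinc and copper, MT1X went from 2395 to 5489 in siRNA A, but only from 1691 to 1996 in siRNA B, and control read 1996 and 1562. MT1H showed the same, with differences of 1.95 and 0.21, while the zinc importer SLC39A8 rose in both, by 1.09 and 1.11. Of 16 genes in that list 7 rose and 1 fell. Of 28 cytosolic ribosomal protein genes 4 fell, a share near that of all genes, and the medians were -0.093, -0.47 and -0.093. Of the same genes 23 were lower in both siRNAs by any amount (39.5% of all genes), and 20 had both replicate 2 siRNA arrays below the other 4 (21.0% of all genes). RPL14 read 8471 and 3916 with siRNA B but 9699.8 and 8975 with siRNA A. Of 28 oxidative phosphorylation genes 5 rose and 0 fell, all 5 of them complex I subunits, led by NDUFS7 and NDUFB8 at 0.68 and 0.65. ATF4, the integrated stress response factor, fell by 0.70, from 6508 and 6014 to 4281 and 3454, and its list, ATF4 included, held 1 that rose and 2 that fell of 18. Of 22 unfolded protein response genes 3 rose and 1 fell, and control's median, 0.31, was above both siRNAs' (0.17 and -0.069). FOS, an immediate early gene, rose by 0.97, and ATF3 and JUN fell, at -0.90 and -0.66, as did DUSP5, at -1.08 and -0.92. DICER1, which makes the short RNAs that siRNAs resemble, went from 666 and 316 to 1168 and 512, and in control from 586 to 460.4.

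Markers of other cell types were mostly dim. Of 13 fibroblast and endothelial markers 4 were bright enough to test, and the summed signal of all 13 was 564 to 921 with siRNA A, 1269 to 2084 with siRNA B and 557 to 654 with control. LUM was the brightest on every array, and COL1A1, a collagen gene, fell by 0.80. Of 9 leukocyte and erythroid markers 2 were tested, and neither passed. The endothelial markers CDH5 and KDR and the leukocyte marker PTPRC, among others, had signals of 21.7 or less on every array. Some other members did not. LYZ went from 8.81 and 14.5 to 52.4 and 39.7, with 8.30 and 11.3 in control. VWF read 53.8 in replicate 2 of siRNA A, and CD14 read 47.4 in replicate 2 of control. PECAM1, which was tested, ran from 19.1 to 39.3. The part of these signals in the results above was not tested. Probe sets without a single gene symbol were described in the same way: of 4220 tested, 10 were 2-fold higher and 35 lower in both siRNAs.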

How the data were processed

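The authors deposited a linear intensity for every probe set, computed with MAS5 per the submitters' processing notes. The sources used here do not give its version or scaling target. Of 54675 probe sets, 62 array controls were left out, 41091 had 1 gene symbol (41037 of them matched RefSeq's GRCh38.p14 gene table), 1801 several and 11721 none. Each array was scaled to a common 2%-trimmed mean and log2(signal + 16) taken, a scale that understates the change of dim genes. A gene was its probe set with the highest mean. The filter asked for a mean at least as high as that of the middle probe set (log2 value 5.25, signal 22.0); 12436 genes passed and 7339 did not.

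Genes were tested two-sided with limma 3.58.1 in R 4.3.3 (eBayes with an intensity trend, Benjamini-Hochberg over all tested genes). The fit reported held the 4 SOX9 siRNA arrays, with siRNA as a block and the replicate number as the term tested, 1 residual and 14.4 total degrees of freedom. A second fit over 6 arrays compared the siRNA difference with that of control. The design text calls the arrays biological duplicates, and no source says how they were separated. The residual is the difference between the siRNAs in their replicate difference. The p-values therefore set the replicate difference against disagreement between the siRNAs, moderated by the trend, and not against spread among replicates. The fits were tested on simulated data with independent noise of the same size for every gene. That noise had no intensity trend and no shift shared by an array, so error rates on these arrays were not tested.

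The comparison, the 31 gene lists and their 607 symbols, of which 553 had a probe set, were chosen with earlier results of these data known. Named genes are SOX9; up to 12 per direction by the smaller of both siRNAs' differences; up to 6 per direction against control; up to 4 shared with control or opposite between the siRNAs; and list members by size, the whole list for sterol, fatty acid, glycolysis, hypoxia, chemokine and NF-kappaB genes, where members not named are given by counts. ACTB is a quality probe, and ARRDC4 and PLOD2 were chosen after their values were seen. Listed genes that no single-symbol probe set names were not analysed here. Alternatives were the scaling, log offset, filter, probe set choice, eBayes settings, blocks, thresholds and each array left out (without pairing by siRNA).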

Additional observations from a re-analysis of the deposited data

Results flagged for a closer look

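The replicate difference of the SOX9 siRNAs differed from that of the control siRNA in 194 genes (limma, adjusted p below 0.05). Among the genes named in the report the difference from control was as follows, on the log2 scale; control has 1 pair of arrays. Below control were the chemokine system genes CCL2 at -4.68, CCL20 at -3.71, CXCL10 at -3.19, CXCL8 at -2.63, ACKR3 at -2.61, CXCL11 at -2.58 and CXCL1 at -1.65. Listed hypoxia response genes were at -2.21 for CA12, -2.20 for VEGFA, -1.91 for P4HA1, -1.51 for MXI1 and -1.23 for BNIP3. Glycolysis genes were at -1.78 for PDK1, -1.56 for HK2, -1.53 for PFKP, -1.45 for ALDOC and -0.97 for LDHA. Other genes below control were LYPD6 (-2.56), PLAT (-2.33), PRAME (-2.08), TXNIP (-2.04), GADD45A (-1.98), PRIM1 (-1.20), and, outside the hypoxia list, PLOD2 (-2.45) and MIR210HG (-1.94).

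Genes of sterol synthesis and handling were above control: STARD4 by 1.582, IDI1 by 1.42, EBP by 1.37, SQLE by 1.31, MSMO1 by 1.19, HMGCS1 by 1.16, ACAT2 by 1.03, LSS by 1.02, INSIG1 by 1.00, SMPDL3A by 0.88 and FDPS by 0.84. The others were LOC90246 (2.60), GCG (2.54), TMEFF2 (2.46), RFX6 (2.26), PLD3 (2.21), ID1 (2.12), SHH (2.00), REG4 (1.87), TLE4 (1.73), RORB (1.41), DICER1 (1.07), CDC20 (1.03) and ID3 (0.91). Over the alternatives the difference from control ran from 0.21 to 1.49 for IDI1 and from 0.18 to 1.13 for DICER1. Outside the named genes, 45 of 4220 probe sets without a single gene symbol were 2-fold apart the same way in both siRNAs, and 2 of them were so in control too.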

How the results depend on the processing

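With 2 replicate numbers the arrays share only a number. With a replicate block common to all 3 groups limma called 0 genes (2451 at an unadjusted p below 0.05), and HIF1A, SREBF2 and PLD3 changed sign (-0.049, -0.057 and -0.46). Genes called between siRNA replicates numbered 421 with signals as deposited, 1200 with no filter, 1132 with the median over probe sets, 708 with eBayes without trend, 2 with no siRNA block and 14 to 522 with an array left out. Genes called against control numbered 16 as deposited, 388 with quantile normalization, 527 with median centring, 129 and 348 at log offsets 1 and 64, 7 with no filter, 58 with a filter at the 75th percentile, 2 with the median over probe sets, 45 over all probe sets, 0 with limma's eBayes without trend (1511 at an unadjusted p below 0.05), 389 at an adjusted p below 0.10 and 0 to 2 with an array left out, the last an alternative chosen after seeing the data. In both tests the fits with an array left out also dropped the pairing by siRNA. Genes past 2-fold numbered 364 and 111 at offsets 1 and 64, 143 at the stricter filter, 149 with the median over probe sets, 356 over all probe sets, 1008 at 1.5-fold, 39 at 3-fold and 452 to 735 with 1 siRNA's pair alone.

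Of list medians, cholesterol synthesis was 1.17 as deposited and 0.86 with the median over probe sets; hypoxia genes -0.27 as deposited, -0.28 at offset 64 and -0.26 at the stricter filter; chemokines -2.29 and -1.25 at offsets 1 and 64, -0.99 with no filter and -2.65 at the stricter filter; and NF-kappaB genes -0.16 at the stricter filter. None of these turned sign. Signs turned as deposited for DNA replication (0.042), interferon-stimulated (0.013) and androgen-activated genes (0.025), EPAS1 (0.14) and RELA (0.080), under median centring for EPAS1 (0.035), under quantile normalization for GAPDH (0.0077), and with the median over probe sets for SLC2A1 (0.24), TNFRSF10B (0.047), TMEFF2 (-0.22, and -0.30 against control) and fibroblast markers (0.31). Uncalled differences from control also turned: TFF3 to 0.034, 0.038 and 0.0093 under quantile, centring and offset 64, DSC1 to 0.046 and ESRRG to 0.23 at offset 64, and ESRRG to 0.0016 with the median over probe sets. With an array left out, ranges crossed 0 for PCDHB6 (-0.66 to 0.97), SI (-0.018 to 1.84), SREBF2 (-0.17 to 0.25), ADM (-0.16 to 0.44), COL1A1 (-1.78 to 0.18), CSF1 (-0.62 to 0.080), EPAS1 (-0.36 to 0.27), LBR (-0.97 to 0.041), MT1X (-0.012 to 1.44), TM7SF2 (-0.79 to 0.045) and NFKB1 (-0.036 to 0.46). The causes were not tested. Counted over each named gene under each alternative, 896 calls of the replicate difference were lost with the direction kept and 5 gained, and 233 of the difference from control were lost.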

Other observations

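The counts that follow are read against all genes tested, of which 7.61% rose and 11.1% fell. Of 9 heat shock genes tested, 3 rose between the siRNA replicates and 0 fell, and the medians were 0.098 with siRNA A, -0.016 with siRNA B and 0.068 with control. Those that rose were the chaperone genes HSPH1, DNAJB1 and DNAJA1, at 0.52, 0.46 and 0.46. Of 18 lysosome and autophagy genes 3 rose and 1 fell, with medians of -0.020, 0.11 and -0.076. Of 13 genes that make and load small RNAs 3 rose and 0 fell, among them TARBP2, the partner of DICER1, at 0.63. Of 12 genes of the NRF2 and oxidative stress list 4 rose and 2 fell; TXNIP and TXNRD1, a thioredoxin reductase, were those that fell, TXNRD1 by the mean of -0.52. Of 14 targets of p53 2 rose and 2 fell, shares near those of all genes, with TNFRSF10B, a death receptor, at -0.84 and ZMAT3, an RNA-binding protein, at 0.70. Of 17 core genes of RNA polymerase II and the spliceosome limma called 0 in either direction, with 2 at an unadjusted p below 0.05, and the medians were 0.17, 0.16 and 0.086.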
